A study of Mus musculus with 2040 samples.

Results

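The 9 glucocorticoid-response genes described here are Nr3c1, Fkbp5, Tsc22d3, Sgk1, Ddit4, Zbtb16, Plin4, Hif3a and Cdkn1a, taken by name from the 32245 gene columns of the expression table. They were not chosen by a threshold on measured values. Each was followed in visual cortex astrocytes and oligodendrocytes by vector and sort plate, and in astrocytes by tissue. The study labelled glia with enhancer-AAVs, viruses in which a short enhancer or promoter drives the fluorescent protein SYFP2, and sequenced the RNA of 2040 single SYFP2-positive cells, 1 library per cell. All 47 mice were C57Bl/6J, each mouse had received 1 of 30 vectors, and no group was free of virus. VISp (primary visual cortex) was sampled in 41 mice with 27 vectors, MB/HB (midbrain and hindbrain) in 4 mice with eHGT_381h or MGT_E160m, and CBX (cerebellar cortex) in 2 mice with eHGT_375m. Each vector went into a single tissue, so tissue and vector cannot be told apart. The labels used here give no age, sex or time after infection, and a sorted cell stands only for cells in which the vector was active.

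Glucocorticoids are adrenal steroid hormones that cross into the brain and bind the glucocorticoid receptor, the product of Nr3c1. In the cytoplasm the receptor is held by heat shock protein chaperones. Once bound, it enters the nucleus and binds DNA at a palindromic response element, where it raises or lowers transcription of nearby genes. Fkbp5 is a co-chaperone that lowers the receptor's affinity for hormone, and Tsc22d3 (also called GILZ) and Sgk1, a protein kinase, are widely used readouts of receptor activity. Ddit4 restrains mTORC1 signalling, Zbtb16 is a zinc-finger transcription factor, Plin4 coats lipid droplets, Hif3a is a hypoxia-inducible factor subunit, and Cdkn1a encodes the cell cycle inhibitor p21, which p53 also induces. Several of them also respond to stress, metabolic or growth signals.

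Promoter windows from RefSeq (GRCm38.p6, 250 bases before to 50 after each start site) were searched in 7 members with 15 start sites. Those of Nr3c1 and Zbtb16 were not searched. The palindromic glucocorticoid response element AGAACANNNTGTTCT (N is any base) lay in 3 of 32851 promoters (0.00913%), and 1 of the 3 was 1 of the 6 start sites of Sgk1. It lies at chr10:21993701-21993715. The half-site AGAACA, or TGTTCT on the other strand and including those within the palindrome, lay in 19% of all promoters. Among the 7 members searched it was found at 3 start sites of Sgk1 and at 1 of the 3 of Tsc22d3. The windows of Fkbp5, Ddit4, Plin4, Hif3a and Cdkn1a held neither motif. Both sequences are shown because these are the 2 members whose levels separated the glial classes, with the palindrome and every half-site in capitals.
Sgk1 (chr10:21993640-21993939, + strand): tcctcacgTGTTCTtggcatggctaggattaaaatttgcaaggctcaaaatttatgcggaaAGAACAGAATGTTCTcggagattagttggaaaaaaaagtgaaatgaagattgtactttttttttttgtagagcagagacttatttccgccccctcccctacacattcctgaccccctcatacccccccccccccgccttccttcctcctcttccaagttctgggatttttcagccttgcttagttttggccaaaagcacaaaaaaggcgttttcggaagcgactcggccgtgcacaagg
Tsc22d3 (chrX:140600473-140600772, - strand): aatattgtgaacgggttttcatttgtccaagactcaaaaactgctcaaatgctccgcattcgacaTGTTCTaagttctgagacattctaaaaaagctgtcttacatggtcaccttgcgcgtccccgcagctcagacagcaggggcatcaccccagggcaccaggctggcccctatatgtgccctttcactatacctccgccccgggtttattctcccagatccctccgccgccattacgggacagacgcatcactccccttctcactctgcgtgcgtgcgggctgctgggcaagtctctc
A match is a description of the sequence and not a measured binding site, and elements farther from the start were not searched.

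On the same build Sgk1 spans chr10:21882184-21999903, Fkbp5 chr17:28398753-28486149, Tsc22d3 chrX:140539528-140600522, Ddit4 chr10:59949675-59951770 and Plin4 chr17:56100587-56109948. Hif3a spans chr7:17030993-17062427, Zbtb16 chr9:48651797-48836225, Nr3c1 chr18:39410545-39519421 and Cdkn1a chr17:29090979-29100722. The expression values are per gene and do not separate start sites.

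Cells were classed from marker genes without using the 9 members: 968 were astrocyte-like (47.45%), 973 oligodendrocyte-like (47.7%) and 99 neuron-like (4.85%). The mouse was the replicate, and a level is the mean CPM (reads of a gene when each cell is scaled to a sum of 1000000) over the cells of a class in a mouse with at least 10 such cells. In VISp this gave 19 mice with 739 astrocyte-like cells (12 vectors) and 22 mice with 949 oligodendrocyte-like cells (15 vectors). Median depth per mouse was 313799 to 630526 reads per cell in the former and 315518 to 675166 in the latter. The clusters were named from the same marker lists, so the sums describe the classes and are no test of the names. The 11 oligodendrocyte markers summed to 67610 to 91175 CPM per mouse in oligodendrocyte-like cells and to 171.1 to 1272 CPM in astrocyte-like cells. The 10 astrocyte markers summed to 27326 to 35353 CPM in VISp astrocyte-like cells and to 210.2 to 1177 CPM in oligodendrocyte-like cells. All p-values measure the spread between mice.

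Sgk1 and Tsc22d3 divided the 2 classes in opposite directions. Sgk1 was 143.1 to 5306 CPM in the 22 oligodendrocyte-like mouse means (median 598.7) and 0 to 23.2 CPM in the 19 astrocyte-like ones (median 4.50). Every oligodendrocyte-like mean lay above every astrocyte-like mean, and on the log2(mean CPM + 1) scale the class means were 9.18 and 2.17, a difference of 7.01. Tsc22d3 was 461.6 to 1928 CPM in astrocyte-like cells (median 955.2) and 143.3 to 257.5 CPM in oligodendrocyte-like cells (median 186.7). Here, too, the mice did not overlap, with log2 means of 9.86 and 7.58. The classes came from clustering the same cells, so these differences carry no test. Of 4888 genes compared, 6.2% separated the mice without overlap with oligodendrocyte-like cells higher and 8.33% with astrocyte-like cells higher, 14.5% in all.

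The other 7 members overlapped between the classes. The receptor gene Nr3c1 was 109.2 to 242.9 CPM in oligodendrocyte-like cells (median 159.4) and 74.4 to 216.7 CPM in astrocyte-like cells (median 125.9). The co-chaperone gene Fkbp5 had medians of 7.40 and 1.15 CPM, within ranges of 0.284 to 26.6 and 0.264 to 8.004 CPM. Ddit4 had medians of 4.75 CPM (1.55 to 13.05) in oligodendrocyte-like and 5.14 CPM (1.61 to 11.1) in astrocyte-like cells. The oligodendrocyte-like median of Fkbp5 lay near the highest astrocyte-like mouse, whereas the ranges of Nr3c1 and Ddit4 covered most of each other.

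Hif3a leaned towards astrocyte-like cells, with 4.81 to 65.7 CPM (median 19.6) against 0.393 to 7.63 CPM (median 1.63). Zbtb16 spread widely in both classes, from 1.17 to 98.6 CPM (median 18.7) in astrocyte-like and from 1.72 to 57.9 CPM (median 14.5) in oligodendrocyte-like cells. Cdkn1a was low in both, 0.092 to 13.4 CPM (median 4.72) and 0.051 to 11.6 CPM (median 1.44). Plin4 had a median of 3.42 CPM in oligodendrocyte-like cells (0 to 12.3) and was at 0 in every astrocyte-like mouse. Plin4 had no read in any of 968 astrocyte-like cells, which allows a share of up to 0.310% of cells with a read by counting error alone, against 64 of 973 oligodendrocyte-like cells (6.58%).

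**Figure D1:**
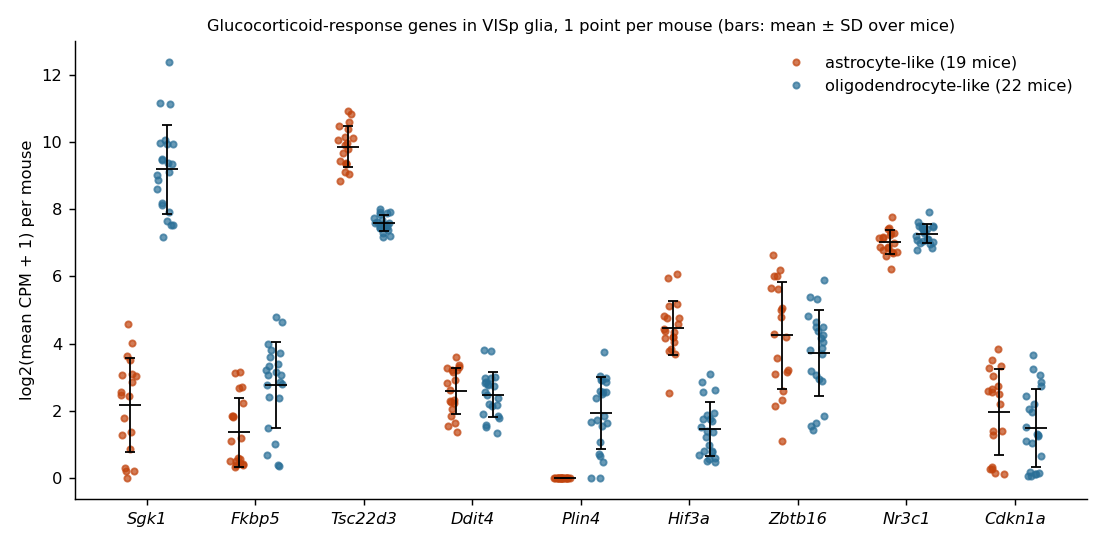
Levels of the 9 genes in VISp, as log2(mean CPM + 1) per mouse on the vertical axis, with 1 point per mouse for 19 astrocyte-like and 22 oligodendrocyte-like mouse means and bars for mean ± SD. The points of the 2 classes are apart for Sgk1 (7.01 higher in oligodendrocyte-like cells) and for Tsc22d3 (log2 means of 9.86 in astrocyte-like and 7.58 in oligodendrocyte-like cells), and overlap for the other 7 except where Plin4 lies at 0 in astrocyte-like cells.

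The same genes were followed in single cells. In VISp, Sgk1 had a read in 82.1% of oligodendrocyte-like and 10.1% of astrocyte-like cells, and in 80.3% and 3.52% after each cell was thinned to 50000 reads. In astrocyte-like cells 99.9% of the summed Sgk1 CPM lay in the top 10% of cells, against 45.2% in oligodendrocyte-like cells. The former share follows from detection, since only 10.1% of astrocyte-like cells had a read. Tsc22d3 had a read in 91.5% of astrocyte-like and 79.7% of oligodendrocyte-like cells, and in 90.7% and 75.8% after thinning. The median cell held 825.8 and 156.4 CPM of it. Nr3c1 had a read in 59% of astrocyte-like and 76.8% of oligodendrocyte-like cells, and in 54.5% and 71.2% after thinning.

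The remaining members were read in a minority of VISp cells, so their means rested on few cells. In oligodendrocyte-like cells Ddit4 was read in 38.4%, Zbtb16 in 24.6%, Hif3a in 23.5%, Fkbp5 in 17.8%, Plin4 in 6.74% and Cdkn1a in 5.58% of cells. In astrocyte-like cells Hif3a was read in 36.1%, Ddit4 in 33.3%, Zbtb16 in 26.9%, Fkbp5 in 16.5% and Cdkn1a in 10.1%. Thinning brought Fkbp5 to 9.48% and 3.38% and Hif3a to 4.64% and 20.4%, in the order oligodendrocyte-like and astrocyte-like. The top 10% of cells held 97.95% of Fkbp5 in oligodendrocyte-like cells and 84.03% of Zbtb16 in astrocyte-like cells.

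Within mice the members barely followed each other from cell to cell. After each mouse's mean was subtracted, no pair exceeded r = 0.108 over 739 astrocyte-like cells or 0.079 over 949 oligodendrocyte-like cells, given as a description in sparse data. Most of the variance of every member with reads lay within mice. Of the variance of Sgk1 over oligodendrocyte-like cells, 31.2% lay between mice, at the 99.8th percentile of 3628 genes, whose median was 3.38%. For Tsc22d3 in astrocyte-like cells the share was 17.6%, at the 99.2th percentile of 3923 genes with a median of 3.41%. Zbtb16 and Ddit4 followed with 15.6% and 12.3% in astrocyte-like cells and 8.67% and 9.02% in oligodendrocyte-like cells. The receptor gene Nr3c1 was nearer the median gene, at 3.38% in astrocyte-like and 4.55% in oligodendrocyte-like cells. Cdkn1a (1.86%) and Plin4 (2.77%) in oligodendrocyte-like cells and Sgk1 (2.33%) in astrocyte-like cells lay below the median gene.

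The mice at the ends of the Sgk1 order differed in most of their cells. In the highest mouse (eHGT_401h) all 44 cells had a read, the median cell held 4877 CPM and the 10th percentile was 2864 CPM. In the lowest mouse (eHGT_403h) 51.1% of 47 cells had a read, the median was 1.78 CPM and the 90th percentile was 429.1 CPM. The 10th percentile of the highest mouse thus lay above the 90th of the lowest, while over all 22 mice the 10th percentile was 0 in 13. For Tsc22d3 in astrocyte-like cells the highest mouse (eHGT_386m) had a median of 1666 CPM and a 10th percentile of 823 CPM, and the lowest (eHGT_380h) had a median of 303.5 CPM and a 90th percentile of 1025 CPM, so that these 2 mice overlapped.

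**Figure D2:**
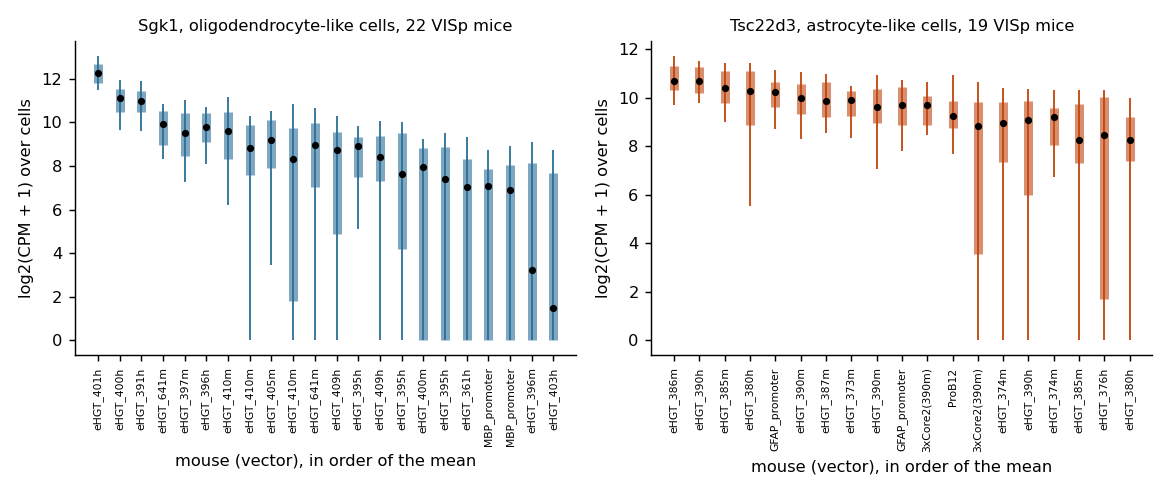
Spread over cells within each VISp mouse, as log2(CPM + 1) on the vertical axis, for Sgk1 in oligodendrocyte-like cells of 22 mice and for Tsc22d3 in astrocyte-like cells of 19 mice. Dots are medians, thick bars run from the 25th to the 75th and thin lines from the 10th to the 90th percentile, with mice in order of their mean. At the ends of the Sgk1 order stand medians of 1.78 and 4877 CPM.

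Sgk1 in oligodendrocyte-like cells differed among vectors. Over the 5 vectors with at least 2 mice (12 mice), 0.0673% of 4456 genes passed the F-test across vectors at an adjusted p under 0.05 (limma, Benjamini-Hochberg), that is 3 genes (6.172% at an unadjusted p under 0.05), and Sgk1 was 1 of them. The 2 MBP_promoter mice had 201.7 and 185.7 CPM, the 3 eHGT_395h mice 516.9, 390.3 and 277.4, and the 2 eHGT_409h mice 548.7 and 467.6 CPM. The 3 eHGT_410m mice had 976.5, 716.4 and 667.1 CPM, and the 2 eHGT_641m mice had 1061 and 648.8 CPM. MBP_promoter mice were the lowest of these and eHGT_641m and eHGT_410m mice the highest, with ranges that overlapped each other and no other vector's. Between-vector differences made up 0.882 of the variance (limma adjusted p = 0.0348).

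That call was not stable. It was lost in 8 of the 12 fits that each left out 1 mouse (limma adjusted p from 0.0256 to 0.389 over the 12), and with AB plates only (adjusted p = 0.215). It was also lost with all genes kept (adjusted p = 0.0956), with depth (0.0635) or the plate prefix (0.0568) as covariate, with at least 20 cells per mouse (0.996) and with means of log2 values over cells (0.988).

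The 3 highest mice did not enter it, since each was the only mouse of its vector. They carried eHGT_401h (5306 CPM), eHGT_400h (2269 CPM) and eHGT_391h (2232 CPM), and all were sorted on plate AB-S40306. Where a mouse's cells lay on several plates, as in 11 of the 22 mice, it was counted on the plate that held most of them (at least 50% of its cells). The 8 mice of plate AB-S40306 had 516.9 to 5306 CPM (median 1026), and the 4 mice of plate AB-S40315 had 201.7 to 1009 CPM (median 260.1). From each plate's own cells, in mice with at least 8 there, Sgk1 was 560.2 to 5306 CPM in 8 mice of AB-S40306 and 203.7 to 1142 CPM in 5 mice of AB-S40315. The 2 plates overlapped either way. Across 5 plates with at least 2 mice (18 mice), 0% of 4645 genes passed the limma F-test (6.717% at an unadjusted p under 0.05), and Sgk1 had a between-plate share of 0.594 with an adjusted p of 0.246. Vector and plate were crossed only in part, so for these single-mouse vectors the mouse, the vector and the plate cannot be told apart.

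In 6 mice with at least 8 oligodendrocyte-like cells on each of 2 plates, the 2 plate means of Sgk1 differed by a median of 0.667 and at most 1.21 in log2 value. Both mice split between AB-S40305 and AB-S40306 were higher on AB-S40306, the plate of the 3 highest mice, by 1.21 and 0.90. Their AB-S40305 means rested on 8 cells each, against 55 and 40 cells on AB-S40306. The 3 mice split between AB-S40314 and AB-S40315 were at 0.87, -0.0096 and -0.097 on AB-S40315 relative to AB-S40314, and the mouse split between 2 SM plates differed by 0.46. In the 4 oligodendrocyte-like clusters Sgk1 had medians over mice of 573.4, 787.2, 495.2 and 556.5 CPM. These rested on different sets of 20, 13, 7 and 10 mice, each with at least 5 cells in the cluster. Mouse means ran from 108.2 to 5387 CPM within the first of these clusters. Between plates with the SM and the AB prefix limma called 0% of 4669 genes (5.89% at an unadjusted p under 0.05). Sgk1 was -0.56 ± 0.54 (SE) on SM plates in log2 value, with a limma adjusted p of 0.920.

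**Figure D3:**
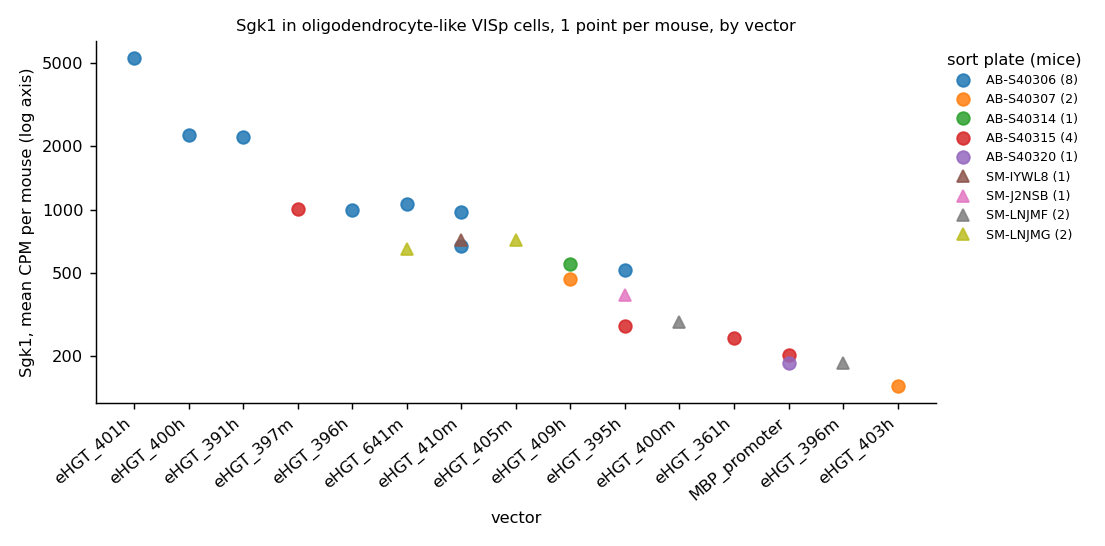
Mean Sgk1 CPM per mouse in oligodendrocyte-like VISp cells on a log axis, by vector along the horizontal axis, with 1 point per mouse, colours for the sort plate, circles for AB and triangles for SM plates. The points run from 143.1 CPM (eHGT_403h) to 5306 CPM (eHGT_401h), and the 3 points above 2000 CPM are all from plate AB-S40306.

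Against the means of the other 4 vectors, the MBP promoter, a fragment of the myelin basic protein gene used as a general oligodendrocyte driver, went with lower Sgk1. The 2 MBP_promoter mice (201.7 and 185.7 CPM) lay below the other 10 mice (277.4 to 1061 CPM), with a log2 difference of -1.61 ± 0.23 (SE) and a limma adjusted p of 0.00335. In that contrast 1.01% of 4456 genes were called, 0.763% lower and 0.247% higher. Lack of overlap was not particular to Sgk1, since more genes did not overlap than were called. Among the members, Tsc22d3, Ddit4 and Cdkn1a did not overlap either. All of these were higher in the MBP_promoter mice, and none was called. Outside the test, 2 mice of vectors with a single mouse were lower than 1 or both MBP_promoter mice, at 184.4 CPM (eHGT_396m) and 143.1 CPM (eHGT_403h). The call was lost without the MBP_promoter mouse with 185.7 CPM (-1.55, limma adjusted p = 0.0992) and with means of log2 values over cells (-2.40, adjusted p = 0.192), and it held on AB plates (-1.47, adjusted p = 0.0398).

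No other member was called there. Zbtb16 was 6.71 and 2.57 CPM in the MBP_promoter mice, with a log2 difference of -1.57 and a limma adjusted p of 0.452. Cdkn1a was 11.6 and 7.46 CPM in them, with a log2 difference of 1.91 and an adjusted p of 0.320. Tsc22d3 was 240.9 and 234.2 CPM, with a difference of 0.40 and an adjusted p of 0.375. Cluster makeup moved with this contrast: 42 of the 48 MBP_promoter cells (87.5%) were in cluster 0, against 47.5% of all VISp oligodendrocyte-like cells. Summed oligodendrocyte markers were 72888 and 74696 CPM in MBP_promoter mice and 67610 to 91175 CPM in mice of other vectors, and mural cell markers were 0.163 and 252.7 CPM against 0 to 45.4 CPM. Their part in the result was not tested.

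Among the further glucocorticoid-induced genes, a list of 18 of which 17 were tested, Gpd1, a glycerol phosphate dehydrogenase, was the only one called in the MBP_promoter contrast. It was at -1.999 in log2 value (limma adjusted p = 0.0451). The list's median difference was -0.24, beside -0.12 over all genes tested. No gene of the lists of receptor partners, immediate-early genes, heat shock genes, hypoxia genes or p53 targets was called.

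In astrocyte-like cells no member was called among vectors or plates. Across 7 vectors with at least 2 mice (14 mice) the limma F-test called 0% of 4723 genes (4.595% at an unadjusted p under 0.05). Across 5 plates (15 mice) it called 0.127% of 4742 genes, 6 in number and none a member, and the list genes among them were Hsph1, a heat shock protein (adjusted p = 0.0437), and Mbp, a myelin gene and oligodendrocyte marker (adjusted p = 0.0267). Tsc22d3 shows the size of the spread within a vector: the 2 eHGT_390h mice had 1805 and 648.1 CPM, the 2 eHGT_380h mice 1425 and 461.6 CPM, and the 2 eHGT_385m mice 1548 and 547.3 CPM. The 2 eHGT_374m mice were closer, at 665.5 and 642.9 CPM. Its adjusted p was 0.990 across vectors and 0.497 across plates. Between SM and AB plates 0% of 4763 genes were called in this class (limma, 3.821% at an unadjusted p under 0.05).

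The genes most like Sgk1 over the 22 oligodendrocyte mice included 3 from the further glucocorticoid list. Every list gene had been put among the genes used by name, while 4873 others were drawn at random. The lists were also chosen with earlier results of these data known, so the count of 3 is a description only. By Pearson correlation of log2(mean CPM + 1) over mice, the first 5 of 4668 genes were Nfkbia (r = 0.879), Polr3e (0.792), Errfi1 (0.791), Per1 (0.736) and Chd8 (0.724). Nfkbia encodes the NF-kappaB inhibitor IkappaB alpha, Errfi1 an inhibitor of EGF receptor signalling and Per1 a circadian clock repressor. Mouse means of Nfkbia started at 34.1 CPM, those of Errfi1 ran from 49.95 to 233.3 CPM and those of Per1 from 1.31 to 20.3 CPM. Spearman's rho was 0.825 for Nfkbia, 0.813 for Errfi1 and 0.771 for Per1. Without the 2 outermost Sgk1 mice r was 0.811, 0.825 and 0.707, and over the 16 AB mice it was 0.968, 0.783 and 0.753. These points share vectors and plates, as set out above for Sgk1, and the correlations are descriptive.

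Of the members, Zbtb16 (r = 0.623, rank 21 of 4668), Fkbp5 (0.570, rank 44) and Ddit4 (0.568, rank 46) stood highest by likeness to Sgk1. Over the 16 AB mice their r was 0.670, 0.519 and 0.514. Lower came Hif3a (0.251, rank 971), Plin4 (0.127, rank 1790), Nr3c1 (0.068, rank 2248), Tsc22d3 (0.058, rank 2330) and Cdkn1a (-0.030, rank 2958). The eHGT_401h mouse, highest for Sgk1, was also the highest of the 22 for Nfkbia, Fkbp5 (26.6 CPM) and Ddit4 (13.05 CPM). Its Tsc22d3, 242.3 CPM, lay below the 257.5 CPM of the eHGT_403h mouse, which was lowest for Sgk1. The genes most like Fkbp5 itself were Eea1 (0.713), Mau2 (0.703), Haghl (0.691), Gm9917 (0.686) and Cog8 (0.670), none of them on a list. For Tsc22d3 they were Hjurp (0.644), Xrcc2 (0.643), Rcan3 (0.635), Porcn (0.621) and Tnfaip6 (0.620).

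**Figure D4:**
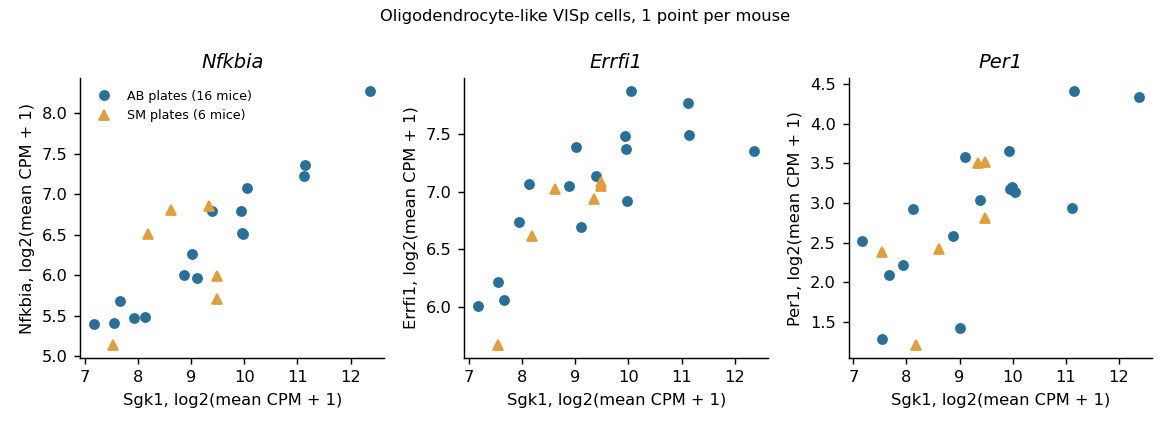
Log2(mean CPM + 1) of Nfkbia, Errfi1 and Per1 (vertical axes) against Sgk1 (horizontal axis) in oligodendrocyte-like VISp cells, 1 point per mouse, with AB and SM plates in different colours and symbols. The points rise with Sgk1 in each panel, with r of 0.879, 0.791 and 0.736 over 22 mice.

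In the 19 astrocyte mice Tsc22d3 had other companions. Among the 5 genes most like it of 4762 were Lhfp (r = 0.821), Arl4d (0.793), Hdac4 (0.785) and Ptbp1 (0.778). Arl4d, a small GTP-binding protein gene on the further glucocorticoid list, ran from 0 to 125.6 CPM over mice. Zbtb16 was the member most like Tsc22d3 (0.587, rank 74), followed by Fkbp5 (0.482) and Ddit4 (0.448). Nr3c1 ran the other way (-0.264). The gene most like Sgk1 there was Trappc3 (0.887). Fkbp5 was led by Phc3 (0.752), Mag (0.698), Map3k5 (0.692), Prune1 (0.687) and Rsbn1 (0.677). Mag, a myelin gene and oligodendrocyte marker, ran from 0 to 7.95 CPM in these mice, and its r fell to 0.479 without the 2 outermost Fkbp5 mice.

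Astrocyte-like cells were then compared by tissue: 19 VISp mice, 4 MB/HB mice with 32 to 41 cells each and 2 CBX mice with 43 and 38 cells. Different clusters held the 3 tissues: 97.5% of CBX cells were in cluster 8, 94.6% of MB/HB cells in cluster 4, and VISp cells mainly in clusters 1 (53.3%) and 2 (39.9%). Of 4840 genes tested, limma called 12.9% between CBX and VISp (5.83% higher and 7.05% lower), 12.6% between MB/HB and VISp (5.56% and 7.02%) and 10% between CBX and MB/HB (4.34% and 5.66%). The 3 contrasts share samples. Of the 9 members 8 were tested, since Plin4 was at 0 and did not pass the filter. Each contrast called 1 of the 8, so the share of members called was at the background.

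Cdkn1a was the member called in both contrasts with VISp. It was 247.6 and 137.8 CPM in the 2 CBX mice and 223.7, 149.2, 145.2 and 118.5 CPM in the 4 MB/HB mice. In the 19 VISp mice it was 0.092 to 13.4 CPM (median 4.72). Neither group overlapped VISp. The log2 difference was 5.56 ± 0.87 (SE) for CBX (limma adjusted p = 1.7e-05) and 5.31 ± 0.65 for MB/HB (limma adjusted p = 3.1e-07), and both calls held under every alternative tried.

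In single cells a read of Cdkn1a was found in 84.2% and 79.1% of cells of the CBX mice, and in 79.5%, 48.8%, 40.6% and 33.3% of cells of the MB/HB mice, against 10.1% of VISp astrocyte-like cells. Between CBX and MB/HB the mouse means differed by 0.25 in log2 value (limma adjusted p = 0.920), whereas means of log2 values over cells differed by 2.26 (adjusted p = 0.00101).

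Genes of other cell types moved with tissue. Summed oligodendrocyte markers in astrocyte-like cells were 171.1 to 1272 CPM in VISp, 1923 and 2196 CPM in CBX and 793 to 6154 CPM in MB/HB. Endothelial markers were 1.18 to 26.6 CPM in VISp and 1.27 to 456.5 CPM in MB/HB, mural markers 30.1 to 98.2 and 5.99 to 1286 CPM, and neuron markers 17.6 to 428.4 and 13.7 to 856 CPM. Fibroblast markers did not overlap VISp (0.192 to 13.8 CPM) in either tissue, at 49.2 and 57.98 CPM in CBX and 29.9 to 70.6 CPM in MB/HB. Nor did oligodendrocyte precursor markers, at 4.28 to 42.7 CPM in VISp, 71.7 and 87.6 CPM in CBX and 48.03 to 112.7 CPM in MB/HB. The median number of genes detected per cell was 3762 to 4701 in VISp mice, 5077.5 and 5591 in CBX mice and 2733.5 to 4601.5 in MB/HB mice. Their part in the tissue differences was not tested. Cells with RNA of another type, in which more than 50% of another class's markers were detected, made up 0 to 25% of cells per mouse in VISp, 6.98% and 10.5% in CBX and 2.44 to 41.7% in MB/HB. Without those cells the Cdkn1a difference was 5.78 for CBX and 5.45 for MB/HB. Of 7 other p53 targets tested, Trp53inp1 was lower in CBX (-2.21) and Ccng1 was lower in MB/HB (-1.59), and none was called higher.

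Hif3a differed between CBX and MB/HB. It was 15.5 and 3.03 CPM in CBX and 46.1, 45.8, 34.2 and 32.4 CPM in MB/HB, with no overlap. In VISp it was 4.81 to 65.7 CPM. Between CBX and MB/HB 1510 of 4840 genes did not overlap, among them Tsc22d3 and Ddit4, which were not called. The log2 difference of CBX from MB/HB was -2.30 ± 0.70 (SE), with a limma adjusted p of 0.0314. It was lost without the CBX mouse with 3.03 CPM (-1.28, limma adjusted p = 0.519), without the MB/HB mouse with 46.1 CPM (eHGT_381h, adjusted p = 0.0551) or 45.8 CPM (MGT_E160m, 0.0602), and with means of log2 values over cells (-1.08, 0.114). Against VISp, Hif3a was -1.43 in CBX (adjusted p = 0.128) and 0.86 in MB/HB (adjusted p = 0.227).

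The feedback and effector genes did not pass the test between tissues. Tsc22d3 was 498.4 and 424.6 CPM in CBX, 1 just inside and 1 below the VISp range of 461.6 to 1928 CPM, with a log2 difference of -1.01 and a limma adjusted p of 0.069. It passed without the VISp mouse with 524.3 CPM (eHGT_376h, limma adjusted p = 0.0476) or 461.6 CPM (eHGT_380h, 0.0398). Ddit4 was 0.749 and 0.738 CPM in CBX, below all VISp mice, in a contrast where 686 of 4840 genes did not overlap. Its difference from VISp was -1.78, with a limma adjusted p of 0.0547. That contrast passed with a pseudocount of 0.1 CPM (-2.56, 0.0313), with all genes kept (adjusted p = 0.0463) and without the VISp mouse with 2.12 CPM (ProB12), 1.93 CPM (3xCore2(390m)) or 1.61 CPM (GFAP_promoter), where adjusted p was 0.0421 to 0.0478. Ddit4 in CBX against MB/HB passed with that pseudocount (-2.90, limma adjusted p = 0.0440) and without cells with RNA of another type (-2.18, 0.0492). In MB/HB, Tsc22d3 was 742 to 963 CPM and Ddit4 3.47 to 8.84 CPM, both inside the VISp ranges.

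**Figure D5:**
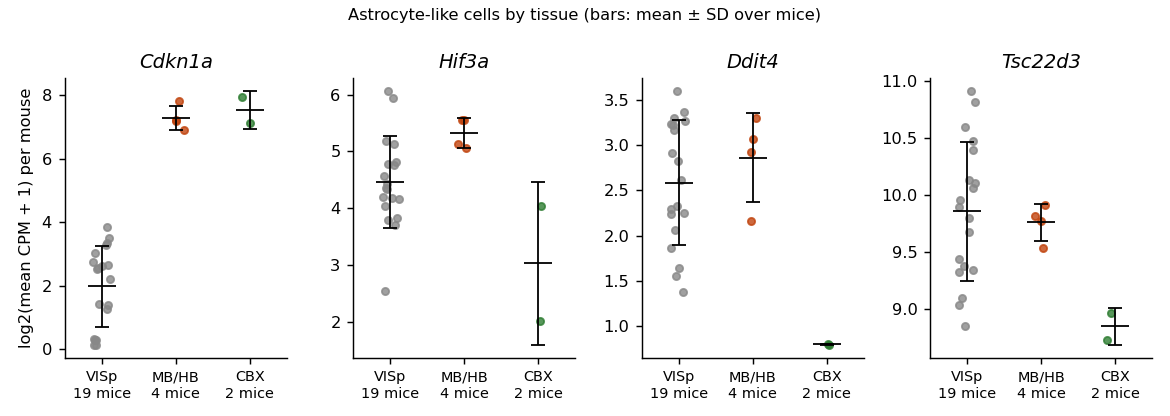
Log2(mean CPM + 1) per mouse of 4 genes in astrocyte-like cells of VISp (19 mice), MB/HB (4 mice) and CBX (2 mice), 1 point per mouse with mean ± SD bars. Cdkn1a lies 5.31 (MB/HB) and 5.56 (CBX) above VISp, while the other genes have CBX means below VISp that did not pass the test.

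Genes that act with the receptor differed by tissue although Nr3c1 itself was 98.8 and 119.4 CPM in CBX and 84.4 to 181.8 CPM in MB/HB, inside the VISp range. Of the 10 genes for receptor partners, chaperones and steroid metabolism, 7 were called in CBX against VISp, beside 12.9% of all genes. Of the 7 called, 5 were higher and 2 lower. The list's median difference was 1.04 beside -0.02 over all genes. Hsp90aa1 (2.26) and Hsp90ab1 (1.74), the chaperones that hold the receptor, were higher. Hsd11b1, the enzyme that regenerates active glucocorticoid within cells, was higher by 1.55 in CBX and by 1.85 in MB/HB. The mineralocorticoid receptor gene Nr3c2, which binds the same hormone, was lower in CBX (-1.60) and higher in MB/HB (0.9985). In MB/HB 5 of 10 were called, 3 higher and 2 lower, beside 12.6% of all genes. The 2 lower ones were the coregulator genes Ncoa2 (-0.98) and Ncor1 (-0.79).

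The further glucocorticoid-induced genes were mostly lower than in VISp where they were called in CBX or MB/HB. In CBX 6 of 18 passed, 1 higher and 5 lower, beside 12.9% of all genes. The list median was -1.21, beside -0.02 over all genes. The lipid transporter gene Mfsd2a was listed at 0 in both CBX mice and at 188.3 to 721.8 CPM in VISp. Pdk4, a kinase that restrains glucose oxidation, was lower by -2.20 and the phagocytic receptor gene Mertk by -1.33 in log2 value, and Gpd1 was higher by 3.36. In MB/HB 5 of 18 passed, beside 12.6% of all genes. Gpd1 was higher by 1.70, and Fam107a (-2.35), Mertk (-1.39), Pdlim4 (-1.30) and Pdk4 were lower. Between CBX and MB/HB 4 of 18 passed, 2 in each direction, beside 10% of all genes. The lists were not tested as sets. Gpd1 thus moved up in both tissues where other genes of its list moved down.

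Lists of neighbouring stress responses did not move as one. Of 9 immediate-early genes tested none was called in any tissue contrast. Of 5 heat shock genes, Hspa1b (2.88) and Hspa1a (2.64) were higher in CBX than in VISp, and none was called in MB/HB. Of 8 hypoxia genes, the glucose transporter gene Slc2a1 (-2.73) and Vegfa (-2.13) were lower and Ldha (1.40) higher in CBX. In MB/HB Adm was 35.2 to 245.1 CPM against 0 to 5.28 CPM in VISp (5.88), and Slc2a1 (1.03) and Pgk1 (0.58) were also higher.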

How the data were processed

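The deposited table holds CPM (reads of a gene scaled to a sum of 1000000 per cell) for 2040 single cells, sorted for SYFP2 and made into SMARTerv4 libraries per the labels' protocols. Reads were aligned with STAR to mm10, per the submitters' processing notes; the counter and annotation are not given in the sources used here. Every line of the table summed to 1000000, and all 9484843 positive values were whole multiples of 1 read within 0.001 reads, which gave a median depth of 434102 reads per cell (57873 to 1455022). The signal values of the 21 most abundant list genes are the same CPM, scaled by the authors before the table was deposited, and are named signal since their sums over cells pass 1000000. The members, the gene lists and the comparisons were chosen with earlier results of these data known. Of the gene columns, 5000 were used (127 listed genes and 4873 drawn at random from genes found in at least 5% of cells). The other 27245 were not used here.

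The 2000 most variable genes other than the members gave 30 principal components, and the graph of 15 nearest neighbours was split into Leiden communities at a resolution of 1 (leidenalg 0.10.2). A cluster took the name of its leading marker list if at least 3 markers were detected and its top 10 genes did not favour another list, counting genes whose share of cells differed by at least 10 points, a limit set after seeing the clusters. No doublet caller was run.

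CPM was averaged over the cells of a class in each mouse with at least 10 of them, and log2(mean CPM + 1) of genes with at least 1 CPM in at least 2 mice was tested with limma 3.58.1 (R 4.3.3, trended empirical Bayes, two-sided, Benjamini-Hochberg at 0.05), a scale that understates changes of low genes. The 3 tissues shared 1 model of 25 mice, and a mouse counted on the plate with most of its cells of the class. A fold in the text is a difference on this scale. Genes named are the members, the up to 4 called genes of each list with the largest difference, and the 5 genes most correlated with Sgk1, Fkbp5 or Tsc22d3 over mice, of which 1 is not reported here. The fits were tested on simulated data. Alternatives changed the pseudocount, filter, averaging, classes, cells, scaling, plates and covariates, and left out each mouse in turn. Limits and intervals cover counting error only.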

Additional observations from a re-analysis of the deposited data

Results flagged for a closer look

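Over 59 groups of 4 to 10 mice, 2 members had a mouse far from the rest of its group, where chance alone flags about 5% of groups. On plate AB-S40306 (8 mice) Fkbp5 was 0.284 CPM in the oligodendrocyte-like cells of an eHGT_410m mouse and 6.31 to 26.6 CPM in the other mice. On plate AB-S40315 (4 mice) Hif3a was 4.93 CPM in an eHGT_395h mouse and 0.512 to 0.755 CPM in the other mice.

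The 99 neuron-like cells entered no comparison, and 8 of the 9 members had reads in them. Cells with a read made up 90.9% for Tsc22d3, 87.9% for Nr3c1, 77.8% for Sgk1, 64.6% for Cdkn1a and 63.6% for Zbtb16. Fkbp5 was read in 45.5%, Hif3a in 42.4% and Ddit4 in 20.2% of these cells, and Plin4 in none.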

How the results depend on the processing

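Of 2617 values of members under alternatives, 2544 kept their direction and their side of the threshold, 20 lost a call, 10 gained one, 35 changed sign and 8 moved by more than the spread; no value that changed sign was called. The share of tested genes that limma called changed by over 1.5 times in number as follows. With means of log2 values over cells it was 28.97% for CBX minus VISp (12.87% as reported), 31.4% for CBX minus MB/HB (10%), 0.2469% for MBP_promoter (1.01%), 0.04235% for astrocyte vectors (0%), 0% for astrocyte plates (0.1265%) and 0.02142% for oligodendrocyte SM minus AB plates (0%). The 0.06732% called among oligodendrocyte vectors became 0.1346% with a pseudocount of 0.1 CPM or median-ratio scaling, 0.1292% with at least 5 CPM, 0.112% with classes called per cell, 0.1139% at resolution 2, 0.02306% on AB plates, and 0% with at least 20 cells per mouse, depth or the plate prefix as covariate. For MBP_promoter the share was 0.5844% with all genes, 0.3689% on AB plates and 0.4264% with depth as covariate. Astrocyte plates gave 0.2945% at resolution 2, 0.06457% without cells with RNA of another type and 0.06337% with at least 20 cells per mouse. Leaving out clusters led by other markers, chosen after seeing the data, gave 0.2946% for astrocyte plates and 0.2181% for oligodendrocyte plates (0% as reported). The median share of cells with a read over members and classes was 25.7%, and 14.2% after thinning. The cause of these changes was not tested.

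Leaving out 1 mouse gave 5.588% to 13.98% for CBX minus VISp, lowest without the CBX mouse with 247.6 CPM of Cdkn1a (5.588%) or the one with 137.8 CPM (6.909%), and 9.388% to 13.08% for MB/HB minus VISp. It gave 4.284% to 10.64% for CBX minus MB/HB, lowest without the same mice (4.284% and 5.647%). MBP_promoter ran from 0.2249% (without its mouse with 185.7 CPM of Sgk1) to 4.194% (without the one with 201.7 CPM), where the lone mouse is assumed to vary like the others. Oligodendrocyte vectors gave 0% to 0.9068%, oligodendrocyte plates 0% to 0.0653%, astrocyte plates 0.04225% to 0.5912%, astrocyte vectors 0% to 0%, and SM minus AB plates 0% to 0.02144% in oligodendrocyte-like and 0% to 0.04202% in astrocyte-like cells.

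Signs turned with means of log2 values for Zbtb16 (-0.079) and Nr3c1 (0.60) in CBX minus VISp, Sgk1 (0.0070) and Nr3c1 (-0.20) in MB/HB minus VISp, Nr3c1 (0.80) in CBX minus MB/HB, Hif3a (0.15) for MBP_promoter, and Hif3a (-0.073) and Zbtb16 (-0.17) in astrocyte SM minus AB plates. Without cells with RNA of another type they turned for Zbtb16 in CBX minus VISp (-0.14), Nr3c1 for MBP_promoter (0.00565) and Fkbp5 in astrocyte SM minus AB plates (0.055). Nr3c1 for MBP_promoter was also 0.063 with median-ratio scaling and 0.10 without clusters led by other markers, where Plin4 in oligodendrocyte SM minus AB plates was -0.21. Leaving out 1 mouse turned Zbtb16 in CBX minus VISp (-0.034 to 0.27), Nr3c1 in MB/HB minus VISp (-0.064 to 0.30), Fkbp5 (-0.87 to 0.12) and Cdkn1a (-0.17 to 0.67) in CBX minus MB/HB, and for MBP_promoter Fkbp5 (-1.998 to 0.92), Hif3a (-0.75 to 0.056) and Nr3c1 (-0.15 to 0.14). In SM minus AB plates it turned Plin4 in oligodendrocyte-like cells (-0.024 to 0.51) and Fkbp5 (-0.88 to 0.26), Hif3a (-0.26 to 0.21), Zbtb16 (-0.52 to 1.32) and Nr3c1 (-0.28 to 0.12) in astrocyte-like cells.

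The planned edgeR test was not run on this table of CPM values, and for MBP_promoter at least 20 cells per mouse was not run, since 1 of its 2 mice had 18. No paired analysis was possible because no mouse is shared between tissues, vectors or plate prefixes. Single plates did share mice (6 with oligodendrocyte-like and 11 with astrocyte-like cells on each of 2 plates), and a within-mouse test of plates was not run.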

Other observations

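The neuron-like cells, 84 of VISp and 15 of MB/HB, came from 22 mice, of which 4 had at least 5 such cells. Sgk1 averaged 88.01 CPM over these cells and 15.9 to 110.4 CPM in those 4 mice. Tsc22d3 averaged 134.9 CPM over cells and 79.2 to 154.1 CPM in the 4 mice, which overlapped the VISp oligodendrocyte-like mice (143.3 to 257.5 CPM). Nr3c1 averaged 84.1 CPM, Zbtb16 32.5 CPM, Fkbp5 12.03 CPM, Hif3a 2.04 CPM and Ddit4 0.766 CPM. Cdkn1a averaged 63.9 CPM, and 21.1 to 74.1 CPM in the 4 mice, above the highest VISp mouse of either glial class (13.4 CPM in astrocyte-like cells). The neuron-like values were not split into VISp and MB/HB, and MB/HB astrocyte-like mice had 118.5 to 223.7 CPM of Cdkn1a. These cells came from sorts aimed at glia, and the classes were clustered from the same cells, so the values carry no test.

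Outside VISp, 1 MB/HB mouse (eHGT_381h) gave 8 oligodendrocyte-like cells, too few for a test. Cdkn1a averaged 319.7 CPM in them and was read in 25% of the 8 cells.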
